A study of Mus musculus with 55 samples.

Results

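CTCF depletion was examined in asynchronous mouse embryonic stem (ES) cells, as the 6 libraries of the CTCF-AID line that were not synchronised, 3 treated with auxin (+IAA) and 3 untreated (−IAA), among 55 libraries in the whole series and 36 of this line. Members were chosen by their labels alone, the 3 +IAA libraries against the 3 −IAA libraries, paired by replicate number. Both groups were cells of a single clone, CTCF-AID #EN52.9.1, derived from E14Tg2a and grown in serum with LIF, in which the endogenous CTCF protein carries an auxin-inducible degron; the +IAA cells received 0.5 mM IAA for 4 h and the −IAA cells none. The −IAA cells thus carry the tagged CTCF too, and no cells without the degron were treated with IAA, so that an effect of IAA itself and of CTCF loss cannot be told apart. The remaining libraries of the line were cells in mitosis or from 20 to 120 min after release from nocodazole, and 19 libraries came from CCNA-GFP cells, which are not used here.

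CTCF is a zinc finger protein that binds a long, directional DNA motif. It stops cohesin as it extrudes chromatin loops, which places boundaries between topological domains, and it also binds close to the start of many genes, where it can act on the nearby promoter. In the degron system, auxin joins the tagged protein to a ubiquitin ligase and the protein is destroyed within hours, so that changes in transcription can be read before cells adapt. The measurement was the pre-mRNA, the unspliced transcript quantified as its own isoform in total RNA, which follows transcription more closely than mature mRNA. Levels are given as TPM, the share of all transcripts after scaling for gene length, and differences are given as +IAA minus −IAA on the log2(TPM + 1) scale, which understates the change of genes with low levels.

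The 6 libraries summed to 20361 to 28455 TPM over the 10237 genes of the table, since the remaining isoforms were not in it, and read depth is unknown. Spearman's rho between libraries ran from 0.921 to 0.982 and no library was a copy of another. ES cell markers were present in all 6, with Pou5f1, the gene of the pluripotency factor OCT4, at 6.82 to 13.2 TPM. Nanog, another factor of the same network, was at 6.55 to 11.4 TPM. Replicate 2 stood apart in both arms. Its pre-mRNA of T (Brachyury), a gene of early mesoderm, was 3.48 TPM without and 5.18 TPM with IAA, against 0.0372 to 0.0755 TPM in the other 4 libraries. The keratin gene Krt8 was 1.56 and 1.72 TPM there, against at most 0.642 TPM elsewhere. The part of this difference in the results was not tested, and counts are also given without replicate 2.

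Ctcf (chr8:105636568-105682922, plus strand, GRCm38), the gene of the depleted protein, had a pre-mRNA level of 6.54, 6.1 and 9.13 TPM in −IAA replicates 1, 2 and 3 and 7.52, 7.77 and 10.9 TPM in the +IAA replicates. It rose in 3 of 3 pairs, although the groups overlapped (0.24 ± 0.04 SE, adjusted p = 0.00407), and the call was lost when the pairing was ignored (adjusted p = 1). As the degron acts on the protein, this level does not show whether CTCF was depleted. Here and for the genes that follow, differences are means of 3 pairs, with the moderated SE of the fit, whose spread is pooled over the stages of the line and is not that of the 3 pairs alone. In bulk RNA, fewer cells of a type and less RNA per cell cannot be told apart.

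A gene was called when its adjusted p was below 0.1 and its log2 difference beyond 0.2. Of 10237 genes, 403 (3.94%) were called in asynchronous cells, 227 lower (2.22%) and 176 higher (1.72%) with IAA. The direction was the same in 3 of 3 pairs for 401 of them, which the call itself favours, as it rests on the same pairs. Of all genes, 21% were higher and 13.1% lower in 3 of 3 pairs. Without replicate 2 the counts were 276 lower and 163 higher, and 212 of the 227 and 128 of the 176 were kept. Without the pairing 71 lower and 32 higher genes were left, and with pseudocounts of 0.1 and 0.5 in place of 1 the counts were 295 and 270 lower and 313 and 277 higher. The excess of lower genes was thus not kept with these pseudocounts, nor without replicate 3 (153 lower and 164 higher), while it was 194 to 129 without replicate 1. Of 84 called genes picked by the rule for named genes besides Ctcf, 44 lost their call when the pairing was ignored and 26 with 1 replicate term shared by all stages, among them Carm1, Dna2, Frs3os, Hnrnph3, Ncoa1 and Slc25a22. Most differences were small: the median of the called genes was -0.34 for the lower ones and 0.28 for the higher ones, and 94.4% of all genes stayed within 0.2 of zero. The lower genes were left at a median of 63.0% of their −IAA level, and 61 of the 227 fell below 50% of it. Of the higher genes, whose median fold was 1.42, 20 rose more than 2-fold. A log2 difference beyond 0.5 was found in 56 lower and 20 higher genes. The −IAA and +IAA libraries did not overlap in 139 of the lower and 81 of the higher genes; over all genes, 2.05% and 2.51% were separated in the same directions.

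**Figure D1:**
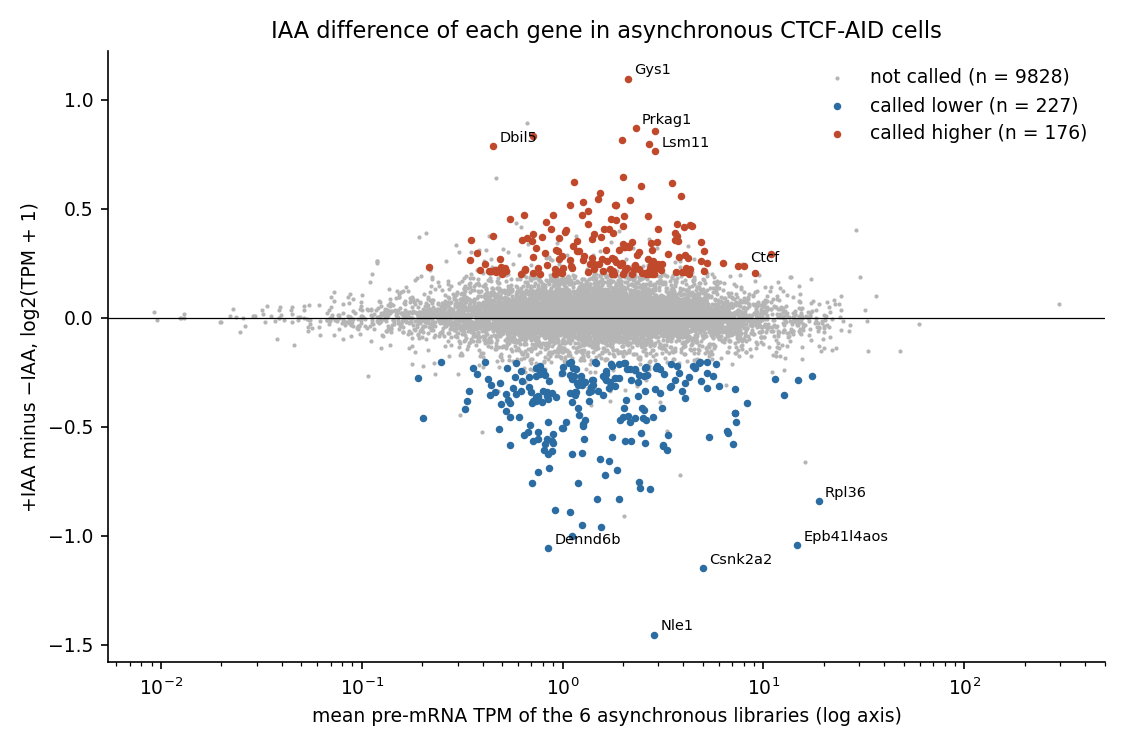
Difference between +IAA and −IAA libraries of each gene (vertical axis, log2(TPM + 1) scale, mean of 3 pairs) against its mean pre-mRNA level in the 6 asynchronous libraries (horizontal log axis, TPM). Blue points are the 227 genes called lower, red points the 176 called higher and grey points the rest, without 6 genes that are at 0 in all 6 libraries; the lower genes reach further from zero than the higher ones, with 4 below -1 against 1 above 1.

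Over all genes the differences centred close to zero. The median difference over all genes was 0.01, with quartiles of -0.03 and 0.06, and the medians within replicates 1, 2 and 3 were 0.02, 0.05 and -0.03. The median −IAA level was 1.67 TPM for the lower, 1.38 TPM for the higher and 1.54 TPM for all genes. The called genes lay on 20 chromosomes, and the share of tested genes that was called ran from 2.77% to 5.57% over the 20 chromosomes with at least 100 tested genes.

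The gene with the largest fall was Nle1 (chr11:82900768-82908411, minus strand, GRCm38), whose protein is needed to mature the large ribosomal subunit. Its pre-mRNA was 4.35, 4.21 and 5.4 TPM in −IAA replicates 1, 2 and 3 and 1.04, 1.0 and 1.12 TPM in the +IAA replicates. All 3 +IAA libraries were thus far below the lowest −IAA library, at 22.7% of the −IAA mean (-1.45 ± 0.06 SE, adjusted p = 1.94e-09). Csnk2a2 (chr8:95446096-95490039, minus strand), a catalytic subunit of casein kinase 2, had 6.93, 6.3 and 8.6 TPM without and 2.46, 2.93 and 2.77 TPM with IAA (-1.15 ± 0.07 SE, adjusted p = 1.31e-07). Dennd6b (chr15:89182213-89196496, minus strand), an exchange factor of the DENN family for Rab GTPases, was left at 13.1% of its level, from 1.43, 1.15 and 1.92 TPM to 0.118, 0.27 and 0.203 TPM (-1.05 ± 0.07 SE, adjusted p = 2.41e-07). This was the lowest remaining share of these 3 genes, but Dennd6b started from a low level, where the log2(TPM + 1) scale compresses a fall. Epb41l4aos (chr18:33794892-33795986, plus strand), a long non-coding RNA and the only non-coding gene among the 12 with the largest falls, had 26.2, 16.5 and 17.9 TPM without IAA. With IAA it had 10.1, 10.4 and 7.1 TPM, all below the −IAA libraries (-1.04 ± 0.17 SE, adjusted p = 0.00147), and its call was lost when the pairing was ignored.

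The next 8 genes by size of fall were all protein-coding, and in each the 3 +IAA libraries were below the 3 −IAA libraries. Dusp12, a dual-specificity phosphatase, went from 1.75, 1.33 and 2.42 TPM to 0.315, 0.385 and 0.498 TPM (-1.0 ± 0.06 SE, adjusted p = 1.31e-07). Krtcap2, a subunit of the oligosaccharyltransferase that N-glycosylates proteins, went from 2.51, 1.67 and 2.96 TPM to 0.708, 0.424 and 1.07 TPM (-0.96 ± 0.07 SE, adjusted p = 2.84e-07). Dph7, an enzyme of diphthamide synthesis on elongation factor 2, was left at 25.9% (-0.95, adjusted p = 9.64e-06). Tab1, the activating partner of the TAK1 kinase in inflammatory signalling, had 2.45, 2.5 and 3.21 TPM without and 0.866, 1.12 and 1.29 TPM with IAA, a loss to 40.1% that was even across the 3 pairs (-0.83 ± 0.05 SE, adjusted p = 6.46e-08). Ttc5, a cofactor of p300 that also takes part in the self-regulation of tubulin mRNA, was left at 36.1% (-0.83, adjusted p = 6.46e-08). Comtd1, with a catechol O-methyltransferase domain, and Tex261 were left at 27.4% and 23% (adjusted p = 0.000159 and 1.19e-05). Rpl36, a protein of the large ribosomal subunit, had the highest mean level of the 12 in both groups, 19.4, 24 and 30.0 TPM without and 10.8, 14 and 14.7 TPM with IAA (-0.84 ± 0.09 SE, adjusted p = 2.53e-05).

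Among the genes that rose, Gys1 (chr7:45434844-45456619, plus strand), the glycogen synthase of muscle and most other tissues, came first. It had 0.911, 0.76 and 1.21 TPM in −IAA replicates 1, 2 and 3 and 3.29, 2.12 and 4.44 TPM in the +IAA replicates, a 3.42-fold rise (1.10 ± 0.08 SE, adjusted p = 5.30e-07). Every +IAA library was above every −IAA library, with replicate 2 the lowest in both arms. Prkag1 (chr15:98812797-98831521, minus strand), a regulatory subunit of the energy sensor AMPK, had 1.28, 1.02 and 1.72 TPM without and 3.05, 2.68 and 4.13 TPM with IAA, 2.45-fold more (0.87 ± 0.06 SE, adjusted p = 1.31e-07). Dtwd2 (chr18:49696145-49755601, minus strand), which modifies uridines in transfer RNA, went from 1.64, 1.52 and 2.15 TPM to 3.66, 3.74 and 4.61 TPM (0.85 ± 0.07 SE, adjusted p = 7.40e-07). These 3 genes had separate groups and kept their call under each of the alternatives tried.

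Ccdc136 rose 2.19-fold (adjusted p = 5.30e-07). Lsm11, part of the U7 ribonucleoprotein that forms the 3′ ends of histone mRNA, had 1.65, 1.98 and 1.98 TPM without and 3.46, 3.51 and 4.76 TPM with IAA (0.77 ± 0.06 SE, adjusted p = 8.63e-07). Mmgt2, of a family of membrane magnesium transporters, rose 1.98-fold, and Eef2kmt, which methylates elongation factor 2, rose 1.76-fold (adjusted p = 6.51e-07 and 4.83e-06). Fdxacb1 and Zbtb45, a zinc finger protein with a BTB domain, rose 2.34-fold and 1.81-fold (adjusted p = 0.00315 and 0.000227). The 3 +IAA libraries were above the 3 −IAA libraries in all of these. The remaining pair of the 12 genes rested on very low levels. Dbil5, related to the diazepam-binding inhibitor, had 0.0744, 0.0652 and 0 TPM without and 0.689, 0.424 and 1.46 TPM with IAA (adjusted p = 0.00566), and its call was lost without replicate 3. BC029722 had 0.13, 0.434 and 0 TPM without and 2.22, 1.14 and 0.332 TPM with IAA (adjusted p = 0.046); the groups overlapped, and the call was lost without replicate 1.

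Several of these genes overlap a gene on the opposite strand in the annotation: Fndc8 lies over Nle1, Trim46 over Krtcap2, Vdac2 over Comtd1, Ruvbl2 over Gys1, Mmp24 over BC029722, Gemin4 and Glod4 over Dbil5, Alg1 over Eef2kmt and Trim28 over Zbtb45. The libraries were stranded, but whether quantification used the strand is not given in the sources used here, so reads of the partners may not have been told apart. Ribosomal protein genes have many near-identical processed copies, which makes their values uncertain in the same way.

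**Figure D2:**
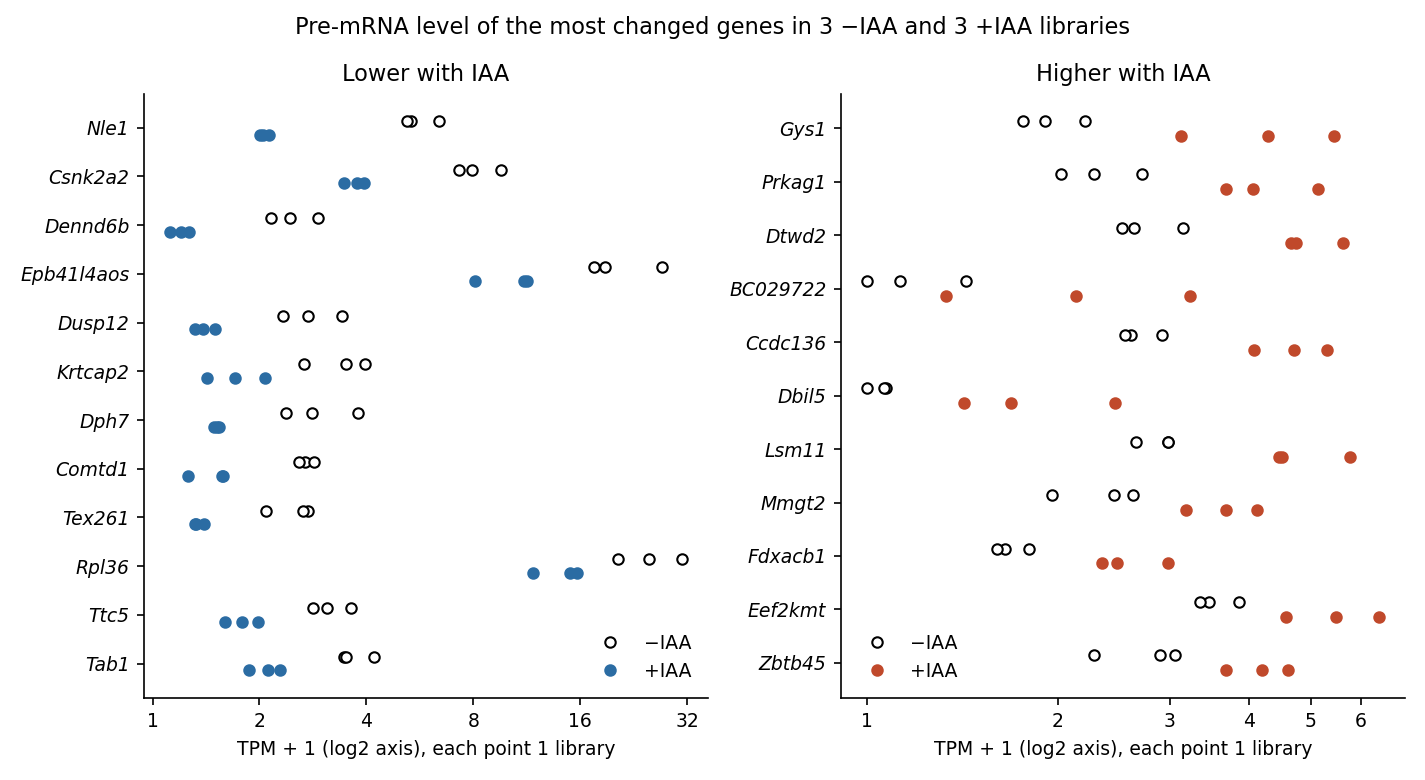
Pre-mRNA level (TPM + 1, log2 axis) of the 12 genes with the largest fall (left) and 11 of the 12 with the largest rise (right) in each of the 3 −IAA (open) and 3 +IAA (filled) asynchronous libraries, each point 1 library. The groups are separate in all genes shown except BC029722, whose lowest +IAA library (0.332 TPM) lies below the highest −IAA library (0.434 TPM).

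A share of the genes that fell carried a CTCF motif just before their start. The core of the motif was searched as CCA, any 2 bases, AG, any 2 bases and GGC in 1 run, on both strands, from 250 bases before to 50 bases after the RefSeq gene starts (GRCm38.p6), of which a gene can have several, where a match is a description of the sequence and not a bound site. Promoter windows were matched for 180 of 225 lower genes, 137 of 171 higher genes and 8251 of 9990 tested genes. A match was found in 31 of the 180 lower genes (17.2%), against 6 of the 137 higher genes (4.38%) and 3.27% of all tested genes. Over all promoters of the RefSeq table, called or not, 2.82% of genes had one. The number of windows per gene was 1.22 for lower and 1.27 for all tested genes, and the median GC content of the windows was 61.2% and 61.3%. Among the lower genes with a log2 difference under -0.5, 10 of 45 (22.2%) had a match, and among the higher genes with one over 0.5, 3 of 17 (17.6%) did. Seen from the motif, 31 of 270 tested genes with a match were called lower (11.5%) and 6 higher (2.22%), and 48.9% of the 270 had a difference below zero. Of the 7981 genes without a match, 149 were called lower (1.87%) and 131 higher (1.64%), and 41.8% had a difference below zero.

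Most matches of the lower genes lay shortly before a RefSeq start. Of their 31 matches, 25 began within the 100 bases before the start (80.6%) and 26 ran on the same strand as the gene (83.9%). Of 237 matches in genes that were not called, 102 lay in that stretch (43.0%) and 138 were on the same strand (58.2%). Not every such start is the outermost one: 11 of the 31 matches of lower genes (35.5%) lay inside the span of the gene in Gencode, as did 4 of the 6 of higher genes and 102 of the 237 in genes not called (43%). The 6 matches of higher genes were 2 on the same and 4 on the opposite strand, and 1 lay within the 100 bases before the start. Sequences are shown for the 6 lower and the 2 higher genes with the largest difference whose match lies before a RefSeq start and outside annotated exons (which leaves out Krtcap2), to let the motif be seen in place. Each is written along the strand of its gene, with the 12 bases of the match in capitals, so that a match on the opposite strand reads as GCC, 2 bases, CT, 2 bases and TGG.
Dennd6b: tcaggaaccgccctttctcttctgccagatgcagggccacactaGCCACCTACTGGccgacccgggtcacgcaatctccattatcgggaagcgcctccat
Adprhl2: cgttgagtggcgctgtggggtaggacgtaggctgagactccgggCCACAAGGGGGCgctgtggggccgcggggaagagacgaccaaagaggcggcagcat
Gfm1: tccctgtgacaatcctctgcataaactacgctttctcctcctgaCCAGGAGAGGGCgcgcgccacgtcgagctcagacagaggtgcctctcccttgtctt
Agfg1: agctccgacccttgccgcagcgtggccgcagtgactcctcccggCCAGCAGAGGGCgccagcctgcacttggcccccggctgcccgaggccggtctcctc
Def8: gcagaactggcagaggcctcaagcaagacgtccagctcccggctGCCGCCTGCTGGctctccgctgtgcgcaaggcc
Rplp0: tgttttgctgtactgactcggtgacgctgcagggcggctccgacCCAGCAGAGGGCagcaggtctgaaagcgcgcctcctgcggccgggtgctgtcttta
Nabp2: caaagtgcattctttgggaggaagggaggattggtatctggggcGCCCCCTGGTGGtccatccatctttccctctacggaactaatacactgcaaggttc
Lsm11: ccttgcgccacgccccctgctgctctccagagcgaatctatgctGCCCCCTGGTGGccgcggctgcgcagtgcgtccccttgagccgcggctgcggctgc
The stretches lie at chr15:89196599-89196698 (minus strand), chr4:126321704-126321803 (minus strand), chr3:67429987-67430086, chr1:82839334-82839433, chr8:123443182-123443258 and chr5:115559246-115559345 (plus strand) for the lower genes, and at chr10:128409978-128410077 and chr11:45944983-45945082 (minus strand) for the higher ones.

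In Adprhl2, which removes ADP-ribose from serine residues, the match began 56 bases before the start and the pre-mRNA fell from 1.56, 1.8 and 1.92 TPM to 0.531, 0.636 and 0.738 TPM (-0.76 ± 0.06 SE, adjusted p = 9.72e-07). In Gfm1, the mitochondrial elongation factor G1, it began 84 bases before the start, and levels went from 2.27, 1.85 and 2.7 TPM to 0.984, 0.809 and 1.14 TPM (-0.72 ± 0.04 SE, adjusted p = 8.27e-08). Agfg1, a GTPase-activating protein for ARF with a match 82 bases before the start, was left at 63.1% (-0.55, adjusted p = 3.91e-06). Def8 was left at 34.9% (-0.54, adjusted p = 1.05e-05), with its match on the opposite strand 33 bases before an internal start, 19.7 kb inside the gene. Dennd6b and Rplp0, the P0 protein of the ribosomal stalk, had their matches further away, 180 and 177 bases before the start. In all 6 lower genes the −IAA and +IAA libraries were separate. Of the higher genes, Nabp2, which binds single-stranded DNA in the DNA damage response, rose 1.77-fold from 1.25, 1.24 and 1.49 TPM to 2.32, 1.89 and 2.84 TPM (adjusted p = 3.36e-05), with its match 183 bases before an internal start, 1.46 kb inside the gene. In Lsm11 the distance was 103 bases, and both matches of these higher genes were on the opposite strand.

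**Figure D3:**
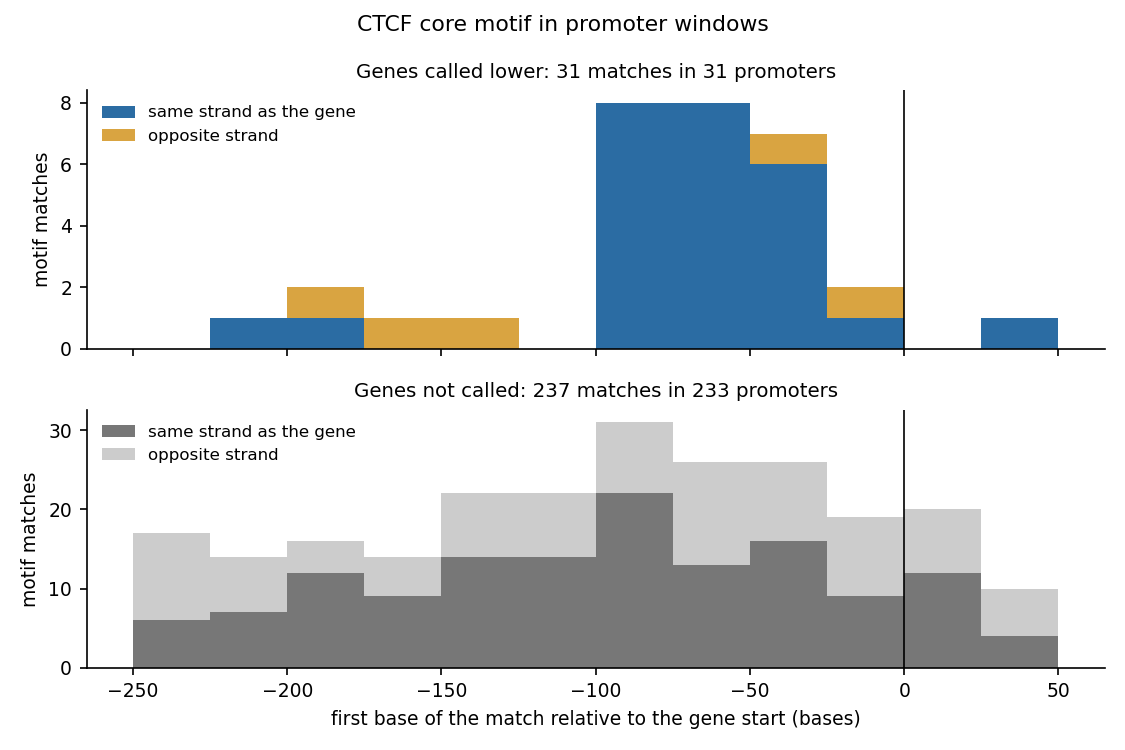
Position of the first base of each match to the CTCF core motif relative to the RefSeq gene start (horizontal axis, bases), as the number of matches per bin, in genes called lower (top, 31 matches) and genes not called (bottom, 237 matches), stacked by strand. In the lower genes 25 of 31 matches begin in the 100 bases before the start, against 102 of 237 in genes not called.

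Called genes next to each other were counted in both directions. The nearest tested neighbour, by distance between starts, was itself called for 15 of 227 lower genes (6.61%) and 15 of 176 higher genes (8.52%), against 4% of all tested genes. The neighbour had the opposite direction for 8 of the lower and 6 of the higher genes. Among 21 distinct pairs of such neighbours, 10 moved in opposite directions, 5 were both lower and 6 both higher. Of 546 pairs of tested genes that start within 1000 bases of each other on opposite strands, 25 had a called gene, and in 24 of these the partner was not called. Per gene, 26 of the 1090 in these pairs were called (2.39%), beside 3.94% of all genes.

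The pair with both genes called was Polr3a and Rps24, whose starts lie 67 bases apart on chromosome 14. Polr3a (chr14:24448696-24487058, minus strand), the largest subunit of RNA polymerase III, fell from 2.4, 2.0 and 2.92 TPM to 1.46, 1.31 and 1.99 TPM (-0.41 ± 0.04 SE, adjusted p = 1.14e-05). Rps24 (chr14:24487125-24496959, plus strand), of the small ribosomal subunit, rose from 2.77, 2.32 and 2.85 TPM to 3.36, 2.87 and 3.78 TPM (0.25 ± 0.06 SE, adjusted p = 0.0148). The groups of both genes were separate, and the call of Rps24 was lost without replicate 3. Rufy2, which binds endosomal membranes, fell to 42.8% (adjusted p = 1.07e-06) while Dna2, a nuclease and helicase of DNA repair 33.2 kb away, rose 1.32-fold (adjusted p = 0.00147). Rufy2 overlaps Hnrnph3, itself called higher, on the other strand, so reads of Rufy2 and Hnrnph3 may not have been told apart. Nat8f4 with Tprkb, Polr2j with Lrwd1 and Tfeb with Frs3os also moved in opposite directions, with starts 6.98, 19.4 and 35 kb apart. Polr2j and Lrwd1 overlap on opposite strands, so their reads may not have been told apart. In each of these 3 pairs at least 1 gene lost its call when a replicate was left out.

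Neighbours that moved together were found as well. Epdr1 and Sfrp4, a secreted Wnt antagonist, start 3.18 kb apart and were left at 36.7% and 52% (adjusted p = 4.58e-06 and 0.00211). Slc25a22, a mitochondrial glutamate carrier, and Pidd1, which responds to p53, lie 6.13 kb apart and were left at 50.9% and 60.2% (adjusted p = 0.00133 and 0.020). Zfp282 and Zfp398, both KRAB zinc finger genes, lie 41.5 kb apart and were left at 58.9% and 41.1% (adjusted p = 0.00143 and 1.41e-05). Pomk with Fnta and Fam133b with 1700109H08Rik were both lower too, at 21.5 and 27.7 kb. Ybx2 and the glucose transporter gene Slc2a4 were both higher at 12.4 kb, by 1.45-fold and 1.63-fold (adjusted p = 0.00279 and 0.0516). The call of Pidd1 was lost without replicate 3, and that of Slc2a4 without replicate 1 or 3.

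Gene groups were described by the number of members called, to be read against the 3.94% of all genes. In 13 of 28 lists no member was called by limma, and of their 150 members 18 had an unadjusted p below 0.05, beside 1429 of all 10237 genes. Genes of cohesin and chromosome architecture had 2 higher and 0 lower of 23, and a median difference of 0.03. One of the 2 was Ctcf itself, described above. The other was Stag1, a subunit of cohesin (0.23 ± 0.06 SE, adjusted p = 0.0672), whose call was lost without replicate 1 or 2, while its paralog Stag2 had a difference of 0.13, adjusted p = 0.162 and Pds5b one of 0.16, adjusted p = 0.113.

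The pluripotency network had 1 higher and 1 lower of 29 (6.9% called) and a median of -0.03. Klf4, a reprogramming factor, was 2.18, 1.87 and 3.21 TPM without and 3.09, 3.01 and 3.45 TPM with IAA (0.31 ± 0.08 SE, adjusted p = 0.0367), and the call was lost without replicate 1 or 2. Prdm14, which represses differentiation genes, was 1.08, 0.673 and 1.06 TPM and 0.61, 0.52 and 0.719 TPM (-0.26 ± 0.04 SE, adjusted p = 0.00135), and the call was lost without replicate 1. Zfp42, a marker of the naive state, had the lowest p of the rest (-0.15, adjusted p = 0.0565), with a difference under the threshold in size, and Klf5 had a difference of -0.18, adjusted p = 0.187. Markers of other cells were counted too. None of 13 genes of primed and early differentiating cells was called, nor of 4 for primitive endoderm, 5 for fibroblasts, 7 for trophoblast and 4 for the two-cell-like state. The defining endoderm genes Gata4, Gata6 and Sox17 were not among the genes of the table, and Twist1, of fibroblasts, was at 0 in 4 of 6 libraries. The summed level of the fibroblast list was 8.28 to 12.3 TPM without and 9.27 to 11.9 TPM with IAA.

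Gene families known for CTCF-dependent insulation had few members in the table. Of the clustered protocadherins, whose promoter choice depends on CTCF in neurons, 2 were listed and none was called: Pcdhga12 had a difference of 0.10, adjusted p = 0.603. None of 7 Hox genes and none of 5 genes of the X inactivation centre was called, where Tsix, the antisense repressor of Xist, had 4.74, 3.26 and 12.9 TPM without and 5.88, 3.91 and 11.2 TPM with IAA (0.10, adjusted p = 0.803). Of 27 imprinted genes 2 were higher. Gnas, the stimulatory G protein subunit, was 2.29, 3.32 and 3.17 TPM without and 3.4, 3.91 and 4.06 TPM with IAA (0.29 ± 0.06 SE, adjusted p = 0.00895), with separate groups. Snurf had a difference of 0.21, adjusted p = 0.0791. Each of these calls was lost without replicate 1, and that of Snurf without replicate 2 as well. Tssc4 had the largest difference of the list, -0.70, but its replicates spread widely (2.49, 1.54 and 3.49 TPM and 2.13, 0.867 and 0.608 TPM, adjusted p = 0.144).

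Ribosomal protein genes had 6 lower and 1 higher of 81 (8.64% called), with a median of -0.03. Rpl36 and Rplp0 were described above. Rpl36a went from 8.35, 8.06 and 9.7 TPM to 5.12, 5.53 and 5.81 TPM (-0.58 ± 0.08 SE, adjusted p = 0.000194), and Rpl5, which with 5S RNA also restrains MDM2, from 15.9, 12.6 and 14.6 TPM to 12, 10.1 and 10.9 TPM (-0.36 ± 0.05 SE, adjusted p = 0.000163). The groups were separate in these 4 genes. Of the list, 74 genes were not called. Of a list of 49 genes of ribosome biogenesis, which does not hold Nle1, 2 were lower and 1 higher. Bysl, needed to assemble the small subunit, was left at 46.2%, from 2.03, 1.54 and 2.72 TPM to 0.866, 0.694 and 1.35 TPM (-0.65 ± 0.05 SE, adjusted p = 5.30e-07). Ddx18 (-0.20, adjusted p = 0.0571) and Polr1c, shared by RNA polymerases I and III (0.20, adjusted p = 0.0751), were close to the thresholds, and both calls were lost without replicate 1 or 3. Splicing and RNA-binding genes had 1 higher of 60, Hnrnph3 (0.24, adjusted p = 0.00686), which overlaps Rufy2 on the other strand.

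Solute carriers, the membrane transporters, had 6 lower and 3 higher of 181. Slc35b2, which carries the sulfate donor PAPS into the Golgi, had the largest fall of the list, from 3.35, 2.26 and 3.57 TPM to 2.2, 0.964 and 2.42 TPM (-0.53 ± 0.06 SE, adjusted p = 2.81e-05), lower in each pair although the groups overlapped. Slc48a1, a heme transporter, was left at 29.8% (-0.51, adjusted p = 1.41e-05), and Slc2a1, the ubiquitous glucose transporter GLUT1, at 73.3%, from 9.15, 8.21 and 11.2 TPM to 7.1, 6.77 and 7.1 TPM (-0.39 ± 0.07 SE, adjusted p = 0.00328). Of 262 zinc finger genes named Zfp and a number, 3 were lower and 4 higher. Zfp398, Zfp341 and Zfp282 were left at 41.1%, 37% and 58.9% (adjusted p = 1.41e-05, 8.31e-05 and 0.00143), and Zfp41 rose 1.53-fold (adjusted p = 0.00328).

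Cell cycle genes were counted by phase. Of 45 genes of G1 and S phase 1 was lower, Rrm2, a subunit of ribonucleotide reductase (-0.25, adjusted p = 0.0634), whose call was lost without replicate 1 or 3. None of 42 genes of G2 and M phase was called, although 35 of them were above zero, beside 57.7% of all genes; Nek2, a mitotic kinase, had a difference of 0.17, adjusted p = 0.0776. None of 5 replication-dependent histone genes was called, and Hist1h2br had a difference of -0.72, adjusted p = 0.203. Of a list of 29 p53 pathway genes, which does not hold Pidd1, 1 was lower, Trp53cor1, the long non-coding RNA lincRNA-p21 (-0.27, adjusted p = 0.0603), and 23 of the 29 were below zero, with a median of -0.06. The call of Trp53cor1 was lost without replicate 1 or 3. None of 13 genes of the Myc network was called.

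The aryl hydrocarbon receptor is a transcription factor that binds indole compounds, a class to which IAA belongs. The receptor gene Ahr had a difference of -0.11, adjusted p = 0.0439, under the threshold in size, and its targets Tiparp and Nqo1 had differences of 0.27, adjusted p = 0.225, and 0.07, adjusted p = 0.731. Of 16 genes of the Nrf2 response to oxidants 2 were higher. Gclm, for glutathione synthesis, was 3.14, 2.43 and 3.42 TPM without and 4.49, 3.68 and 4.5 TPM with IAA (0.39 ± 0.04 SE, adjusted p = 1.75e-05), with separate groups. Srxn1, sulfiredoxin, had a difference of 0.34, adjusted p = 0.00764, lost without replicate 3. None of 27 genes of the integrated stress and unfolded protein response and none of 16 heat shock genes was called; Hspa5, the main chaperone of the endoplasmic reticulum, had a difference of 0.20, adjusted p = 0.153.

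Among signalling groups, 2 of 15 nuclear receptor coactivators were higher, Ncoa1 (0.27, adjusted p = 0.00214) and the arginine methyltransferase Carm1 (0.29, adjusted p = 0.00452). Of 9 Wnt targets 2 were higher, both feedback inhibitors of the pathway: Nkd1 (0.22, adjusted p = 0.000567) and Znrf3 (0.25, adjusted p = 0.0903), while Ccnd1, cyclin D1, had a difference of -0.20, adjusted p = 0.204. Of 20 immediate early genes 1 was higher, Srf, the serum response factor (0.30, adjusted p = 0.032). Calls of Srf and Znrf3 were lost without replicate 1 or 2, that of Znrf3 also without replicate 3, and that of Nkd1 without replicate 1.

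**Figure D4:**
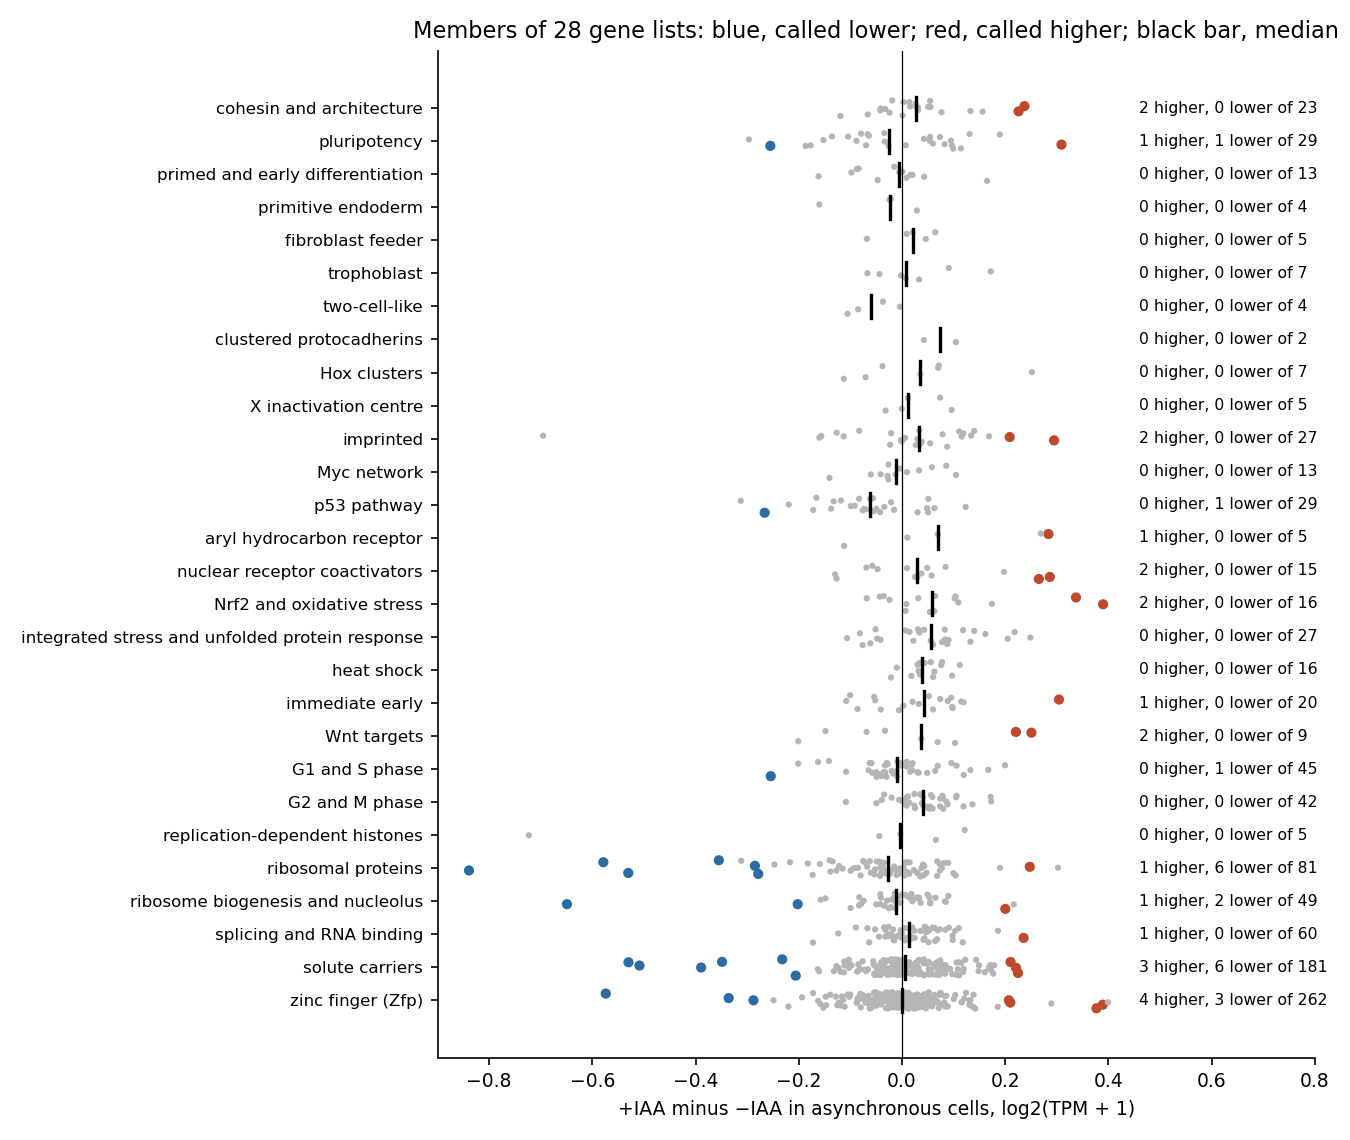
Difference between +IAA and −IAA asynchronous libraries (horizontal axis, log2(TPM + 1) scale) of each member of 28 gene lists, 1 row a list, with called members in blue (lower) or red (higher), others in grey and the median of the list as a black bar. Medians lie between -0.06 and 0.07 in each list, close to the 0.01 of all genes, and ribosomal protein genes hold 6 members called lower.

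The differences were then set beside those in synchronised cells. At 120 min after release the cells had been in IAA for 2 h before and 2 h after release, the same 4 h in total, in 2 replicates a group. These libraries are others than the asynchronous ones but carry the same replicate numbers, 1 and 2, so the stages are not fully separate experiments. In the fit, the stages share only the estimate of the spread. Of the 227 genes lower in asynchronous cells, 219 (96.5%) had a negative difference at 120 min, beside 57.5% of all genes, and 144 were called lower there, where 1.83% of all genes were. Of the 176 higher genes, 167 (94.9%) were positive, beside 42.5% of all genes, and 61 were called higher, where 0.86% of all genes were. None was called in the opposite direction. The asynchronous calls made up 77% of the lower and 69.3% of the higher calls at 120 min. Nle1 had a difference of -1.20 at 120 min, Csnk2a2 -1.04, Dennd6b -1.0, Gys1 0.88 and Lsm11 0.92. BC029722 and Prdm14, in contrast, had 0.02 and -0.06.

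The difference between the effects was itself tested. It passed at an adjusted p below 0.1 for 2 genes of 10237 (0.0195%), and at an unadjusted p below 0.05 for 453; over the alternatives tried, 0 to 6 genes passed. Neither of the 2 was called in asynchronous cells. Synm, an intermediate filament gene, had -0.54 at 120 min and -0.11 in asynchronous cells, and Cacnb3, a calcium channel subunit, had 1.02 and 0.10 (adjusted p of the difference = 0.0663 for both). For Nle1 the effects differed by -0.25 ± 0.09 SE (adjusted p = 0.995).

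Up to 60 min after release the medians of the same genes were closer to zero. In the lower genes the median was -0.08 in mitosis and, at 20, 40, 50, 60 and 90 min after release, -0.11, -0.14, -0.22, -0.26 and -0.37, against -0.32 at 120 min and -0.34 in asynchronous cells. In the higher genes it was 0.04, -0.01, 0.03, 0.12, 0.1 and 0.18 over the same stages, 0.18 at 120 min and 0.28 in asynchronous cells. At 20 min 86.1% of all genes were below zero, so that the sign alone does not set the lower genes apart there. In mitosis and at 20 min limma called no gene at all (0 of 10237), with 436 and 1116 genes at an unadjusted p below 0.05. The lower genes were called lower in 52, 97, 110 and 154 cases at 40, 50, 60 and 90 min, where 0.742%, 1.38%, 1.51% and 2.28% of all genes were. The higher genes were called higher in 11, 37, 37 and 68 cases, where 0.127%, 0.86%, 0.586% and 1.12% of all genes were. Called in asynchronous cells and at each of 50, 60, 90 and 120 min were 81 lower and 25 higher genes, while 57 lower and 90 higher genes were called at no other stage. The lack of a call elsewhere does not show a difference between stages, as the stages after release had 2 replicates a group. Of the 403 called genes, 0 passed the test of a difference from 120 min, and 151 that from the mean of 20 to 60 min. The 31 lower genes with a motif match were called lower at 40 min in 10 cases and at 120 min in 24, and the 149 without a match in 28 and 93.

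**Figure D5:**
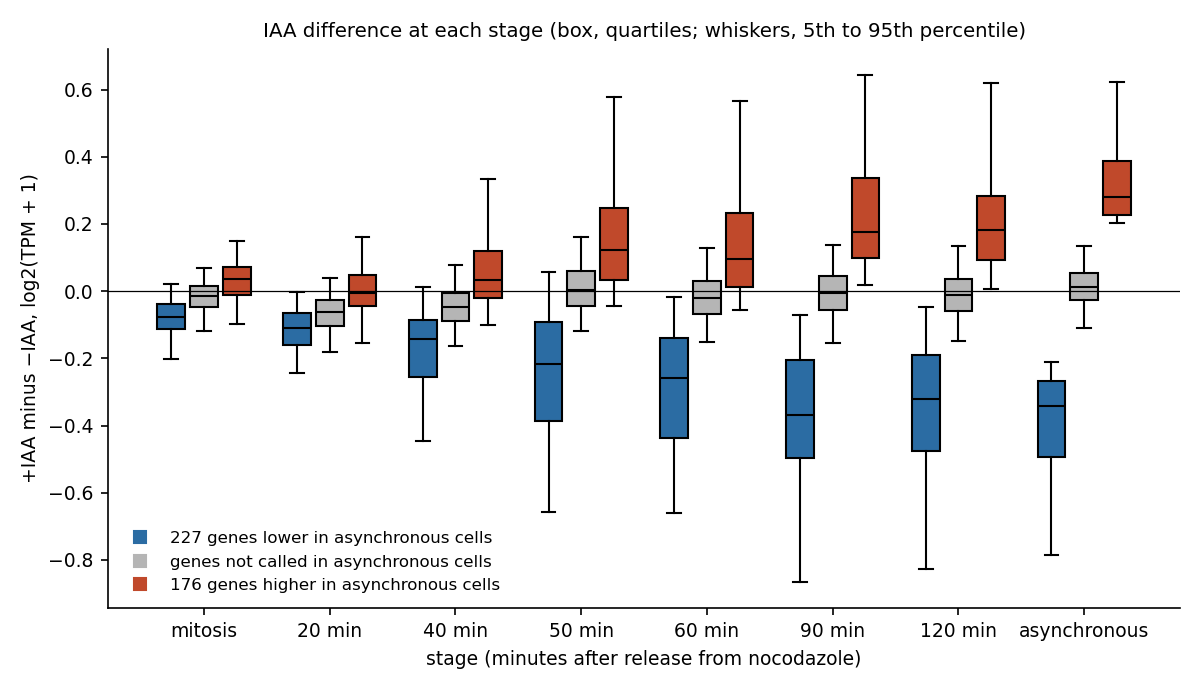
Difference between +IAA and −IAA libraries at each stage (vertical axis, log2(TPM + 1) scale) of the 227 genes lower and the 176 genes higher in asynchronous cells and of the genes not called there (boxes, quartiles with the median; whiskers, percentiles 5 and 95 over genes). The median of the lower genes moves from -0.08 in mitosis to -0.37 at 90 min; genes were chosen on the asynchronous values, which are the last group of boxes.

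The asynchronous difference minus the mean of those at 20, 40, 50 and 60 min passed at an adjusted p below 0.1 for 235 genes (2.3%), 163 positive and 72 negative. The number was 2 when the pairing was ignored, 514 with libraries scaled to the same total, and 81 without replicate 1 and 135 without replicate 3. Over all genes, 86.1%, 77.2%, 48.3% and 61.9% had a negative difference at 20, 40, 50 and 60 min, while 57.7% had a positive one in asynchronous cells. The excess of positive genes is to be read beside this shift, whose part in it was not tested. Time in IAA, synchronisation and the stage of the cell cycle differ together between these libraries and cannot be told apart. On the negative side, Nle1 had a mean of -0.72 over 20 to 60 min against -1.45 in asynchronous cells, and Tab1 -0.28 against -0.83 (adjusted p of the difference = 0.000115 and 0.000178). Ocrl, a phosphoinositide phosphatase mutated in Lowe syndrome, had -0.14 over 20 to 60 min. In asynchronous cells it went from 1.04, 1.26 and 1.43 TPM to 0.394, 0.443 and 0.516 TPM (-0.63, adjusted p of the difference between stages = 0.000115). Dennd5b, another gene of the DENN family, had 0.07 over 20 to 60 min and rose 2.02-fold in asynchronous cells, from 0.614, 0.826 and 0.736 TPM to 1.36, 1.6 and 1.44 TPM. Radil, an effector of Rap GTPases, rose 2.01-fold and Ddx43, an RNA helicase, 1.42-fold in asynchronous cells, against means of 0.12 and -0.01 over 20 to 60 min. For these 3 genes the adjusted p of the difference was 0.000268, 0.000268 and 0.000477.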

How the data were processed

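Pre-mRNA was measured by ribo-depleted, stranded, paired-end RNA-seq. According to the methods of the study and the submitters' processing notes, STAR (genome mm10) and RSEM were used by the authors, with Gencode vM12 transcripts to which each gene's pre-mRNA had been added as 1 more isoform. The authors deposited TPM of that isoform, keeping genes whose mean passed 0.5 TPM in the asynchronous libraries or in 2 or more libraries after mitosis. Versions and the strand setting are not given in the sources used here. TPM hold no read counts, so depth and counting error are unknown, and DESeq2 on counts, the test of the study, could not be run.

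In the headers of the asynchronous columns the letter a of Asy is replaced by rep1; they were matched to the sample titles on that reading. The table of CCNA-GFP cells was not used, and no column of per-sample values of the CTCF-AID table was left out. Differences were fitted with limma 3.58.1 (lmFit, eBayes with trend) in R 4.3.3 on log2(TPM + 1) of all 36 CTCF-AID libraries, with 1 term per stage and replicate, so that each +IAA library is set against its own −IAA library (10 residual degrees of freedom); p-values were adjusted by Benjamini-Hochberg over 10237 genes. The fit was run on simulated data with independent noise of the spread that the fit itself had estimated. This checks the code and not whether the model holds for these data. The pairing comes from the replicate numbers: deviations from the group mean correlated at 0.72, 0.88 and 0.81 between arms within replicates 1, 2 and 3, and at -0.70 to 0.02 across numbers. The study's methods call the replicates independent without saying what was separate. The p-values of the fit measure the spread of the paired differences of these samples, pooled over the stages, and not that of the asynchronous pairs alone.

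Named genes were Ctcf, the 12 highest and 12 lowest called genes that moved alike in 3 of 3 pairs, up to 4 genes a list, called ones first, then by p, up to 3 a direction of each interaction, up to 6 neighbouring pairs a kind, and the called genes with a motif match and the largest differences. Of these, 3 genes are not reported here. Members, the 28 lists and the rules were chosen with earlier results of these data known, and kinases of ribosomal protein S6, which share its name, were taken out of the ribosomal protein list, and solute carriers of subfamilies other than a put into theirs, after the values had been seen. Positions are from Gencode vM21 (GRCm38) and promoter windows from RefSeq (GRCm38.p6), matched by symbol or a synonym that names 1 gene; genes of chromosome 18 were not analysed in the windows. Alternatives were other replicate blocks, pseudocounts of 0.1 and 0.5, a mean TPM of at least 1, 3 scalings, an adjusted p of 0.05, the 6 libraries alone, each replicate left out, and, chosen after seeing the data, the table without genes under 0.5 TPM in all 6 libraries and the fit without mitotic and 20 min libraries.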

Additional observations from a re-analysis of the deposited data

Results flagged for a closer look

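The effect of IAA was tested for a difference between asynchronous cells and other stages. Against 120 min, 2 genes passed: Synm, with a difference of effects of 0.44, and Cacnb3, with -0.93. Neither stood out in the asynchronous libraries, where Synm had 0.149, 0.196 and 0.113 TPM without and 0.0394, 0.135 and 0.0369 TPM with IAA. At 120 min, in 2 replicates a group, Cacnb3 went from a mean of 2.27 to 5.86 TPM.

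Against the mean of 20 to 60 min, 235 genes passed. The named ones had differences of effects of 0.45 (Dennd5b), 0.32 (Radil) and 0.44 (Ddx43) on the positive side, and -0.48 (Ocrl), -0.74 (Nle1) and -0.55 (Tab1) on the negative side.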

How the results depend on the processing

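The limits are the unknown depth, the 3 pairs and the lack of an IAA control without the degron. Fitted without the replicate block, which ignores the pairing, the counts were 32 higher and 71 lower genes, all of them among the calls with the block, the interactions had 0 (120 min) and 2 (20 to 60 min) genes, and Ctcf, at 0.24, had an adjusted p of 1. With an additive block the higher genes numbered 92 and Ctcf, again at 0.24, had an adjusted p of 0.499; the lower genes numbered 157. A pseudocount of 0.1 gave 313 higher genes and no gene in the interaction with 120 min (0), and one of 0.5 gave 277 higher genes. With a mean TPM of at least 1 that interaction had 1 gene. Scaled to the same total, the interactions had 6 and 514 genes. With each library divided by its smallest step of values, 143 genes were lower. Leaving out each replicate in turn gave 129 to 164 higher and 153 to 276 lower genes, 0 to 1 genes in the interaction with 120 min, and 81 (without replicate 1), 161 (without replicate 2) and 135 (without replicate 3) in that with 20 to 60 min; the median over all genes ran from -0.0045 to 0.034. Higher genes were 43.7% of the calls as reported, 39.6% to 46.9% under the 3 scalings and 51.5% with a pseudocount of 0.1. With the filters chosen after seeing the data, the counts were 177 higher and 229 lower without genes under 0.5 TPM, and 173 and 233 without mitotic and 20 min libraries. The cause of these changes was not tested. No named gene changed direction while called; 38 of 84 called genes named kept their call under each alternative that could be fitted, among them 21 of the 24 with the largest differences.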
